A study of Mus musculus with 10 samples.

Results

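Genes for the presentation of intracellular peptides by MHC class I molecules were followed through murine keratinocytes and CD8+ T cells that had been cultured apart or together. The 10 genes H2-K1, H2-D1, H2-T23, B2m, Tap1, Tap2, Tapbp, Tapbpl, Erap1 and Nlrc5 were found by their gene symbols, and all 10 were present among the 25814 genes of each of the 10 deposited tables. RNA was sequenced from 5 groups of 2 libraries each, all from C57/B6 mice that were 8 to 12 weeks old for the adult cells. Keratinocytes alone were primary cells, for which the study used newborn mice or adult tails without stating which of them gave these libraries, and co-cultured keratinocytes were the same kind of cells after culture with pre-activated CD8+ T cells, which were washed off before lysis. Activated T cells were splenic cells isolated with CD8 microbeads and treated for 1 d with αCD3/CD28 Abs in X-VIVO 15 medium. T cells in keratinocyte medium had the same activation and were then kept for 1 d without keratinocytes, and co-cultured T cells were kept for 1 d with keratinocytes in 4 parts keratinocyte medium and 1 part X-VIVO medium. Each of the 4 groups other than keratinocytes alone thus contained or had met cells activated by αCD3/CD28 Abs. Replicate numbers are part of the labels for keratinocytes and for activated T cells, whereas those of the other T-cell groups only name the libraries.

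MHC class I molecules consist of a polymorphic heavy chain, the light chain β2-microglobulin and a short peptide, and they show peptides from the inside of a cell to CD8+ T cells. Peptides made by the proteasome are pumped into the endoplasmic reticulum by the TAP transporter, trimmed there by aminopeptidases and loaded onto the heavy chain with the help of tapasin. In keratinocytes, as in most cells other than leukocytes, this machinery is kept at a low level and is known to be inducible by IFN-γ, through IRF1 and the transactivator NLRC5.

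Control regions of some of these genes are shown first, since the data concern transcript levels. RefSeq promoter sequences (GRCm38.p6) were at hand for 7 of the 10 genes, and 250 bases before the start were searched on both strands. Tap2, Tapbpl and Nlrc5 were not among them. The stretch from a κB motif to an inverted CCAAT box of H2-K1 is at chr17:34000359-34000458 (minus strand, 111 to 12 bases before the start), and that from an ISRE to an inverted CCAAT box of B2m is at chr2:122147548-122147638 (plus strand, 139 to 49 bases before the start). For H2-D1 only the part from the κB motif to the IRF motif is printed (chr17:35262923-35262952, plus strand, 171 to 142 bases before the RefSeq start), because this region is within an exon of a longer annotated GENCODE transcript. Capitals mark the motifs found.
H2-K1: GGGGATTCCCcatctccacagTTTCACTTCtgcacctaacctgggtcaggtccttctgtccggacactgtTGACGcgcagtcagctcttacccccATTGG
H2-D1: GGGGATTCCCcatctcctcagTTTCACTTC
B2m: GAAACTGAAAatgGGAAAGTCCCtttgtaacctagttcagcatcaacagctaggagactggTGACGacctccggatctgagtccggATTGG

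The order of motifs in H2-K1 was a κB motif (GGGNNTTNCC), an IRF core (GAANNGAAA, on the opposite strand), a CRE core (TGACG) and a CCAAT box on the opposite strand. H2-D1 had the same order over the same 100 bases, of which 89 were identical between both genes. In B2m an ISRE (GAAANNGAAA) stood before the κB motif, which was on the opposite strand, and the CRE core and the CCAAT box followed. The IRF core and the ISRE differ in the spacing of their parts, and a repeated run of such letters can hold both. The κB motif was in 3 of the 7 promoters and in 4.0% of all 27025 promoters of the same length, the CRE core in 4 of 7 and 17.9%, and the CCAAT box in 6 of 7 and 34.5%. An IRF core was in 2 of 7 and 6.3%, an ISRE in 2 of 7 (B2m and H2-T23) and 3.0%, and a GAS motif (TTCNNNGAA) in 0 of 7 and 7.2%. Tap1 had a CCAAT box and a CRE core, Tapbp had CCAAT boxes only, and Erap1 had none of these motifs in its window. By the deposited coordinates the windows of H2-D1, Tapbp (chr17:33919228-33919477) and Erap1 (chr13:74639603-74639852) lie inside the gene. That of H2-T23 (chr17:36032702-36032951) lies partly inside. Which start these cells used was not tested. These are matches of letters in a fixed window, and binding was not measured.

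By position, 6 of the 10 genes are on chromosome 17 (GRCm38, coordinates of the deposited tables). H2-K1 is at chr17:33996017-34000333, H2-D1 at chr17:35262730-35267499, H2-T23 at chr17:36029773-36032855, Tap1 at chr17:34187553-34197225, Tap2 at chr17:34203527-34216321 and Tapbp at chr17:33915899-33929288. B2m is at chr2:122147686-122153083, Tapbpl at chr6:125223933-125231860, Erap1 at chr13:74639568-74693201 and Nlrc5 at chr8:94434356-94527272. Exon lengths were from 860 bases (B2m) to 8163 bases (Nlrc5, 62 exons).

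The libraries held 12864931 to 18019609 reads on exons. Levels are RPKM as the authors computed them, which scales reads to the exon length of a gene and to the mapped reads of a library, and 3 reads on 1 kb of exons were worth 0.158 to 0.212 RPKM. The summed level of 10 keratinocyte markers was 19567 to 23168 RPKM in the 4 keratinocyte libraries, 7.25 to 23.5 in the 4 libraries of T cells that had not met keratinocytes and 119 to 198 in co-cultured T cells. Cd8a was at 110.0 to 334 RPKM in the T-cell libraries and at 0.118 to 1.16 in the keratinocyte libraries. Keratinocyte libraries nevertheless held other T-cell transcripts, with 7 of 9 T-cell markers (all but Cd8a and Cd8b1) at 1 RPKM or more in both libraries of keratinocytes alone and Cd4 at 11.4 to 84.5 RPKM. The T-cell libraries held Cd4 too, at 16.8 (replicate 1) and 102 (replicate 2) RPKM in activated T cells and at 62.0 to 75.9 in the 4 later libraries, and in replicate 2 of the activated T cells this was close to the level of Cd8a (110.0 RPKM). The 7 markers Cd3d, Cd3e, Cd3g, Cd247, Cd2, Cd5 and Lck summed to 109.7 (replicate 1) and 433 (replicate 2) RPKM in keratinocytes alone, to 140.0 and 769.9 in co-cultured keratinocytes, and to 882 to 1827 in T cells. B-cell markers reached a sum of 94.5 RPKM in T cells in keratinocyte medium and of 4.47 in keratinocyte libraries, fibroblast markers stayed at 2.51 or less in every library, and melanocyte markers were at 6.66 to 20.1 in keratinocyte libraries. Markers of differentiated keratinocytes were lower after co-culture, with sums of 27.4 to 32.6 RPKM alone and 2.16 to 4.13 in co-culture, and the part of this in the differences below was not tested. The 6 markers of myeloid cells, which also carry class I, summed to 50.5 to 73.9 RPKM in keratinocytes alone, 40.6 to 75.5 in co-cultured keratinocytes and 18.5 to 78.0 in T cells, so that both keratinocyte groups overlapped. The 4 markers of Langerhans and dendritic cells, which carry much class I, stayed at a sum of 0.680 RPKM or less in every keratinocyte library.

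Transcripts of the light chain B2m and of the classical heavy chains H2-K1 and H2-D1 were the most abundant of the 10 genes in all 5 groups, and the transactivator Nlrc5 was the least abundant. In keratinocytes alone the means (± SD, n = 2 libraries) were 634 ± 428 RPKM for B2m, 379.8 ± 198 for H2-K1 and 238 ± 109.8 for H2-D1. These 3 genes could not be put in an order there, since B2m overlapped with H2-K1 and H2-K1 with H2-D1. H2-T23 (81.9 ± 22.9), Tapbp (55.3 ± 7.42) and Tap1 (28.4 ± 10.6) followed without overlap. Tap2 (16.5 ± 6.88) overlapped with Tap1, Tapbpl (8.04 ± 1.20) overlapped with Erap1 (7.35 ± 1.66), and Nlrc5 was at 0.452 ± 0.347 RPKM. The order B2m, H2-K1, H2-D1 held without overlap in co-cultured keratinocytes, in T cells in keratinocyte medium and in co-cultured T cells. In the panels of levels the co-cultured keratinocytes stand above the keratinocytes alone for every gene.

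**Figure D1:**
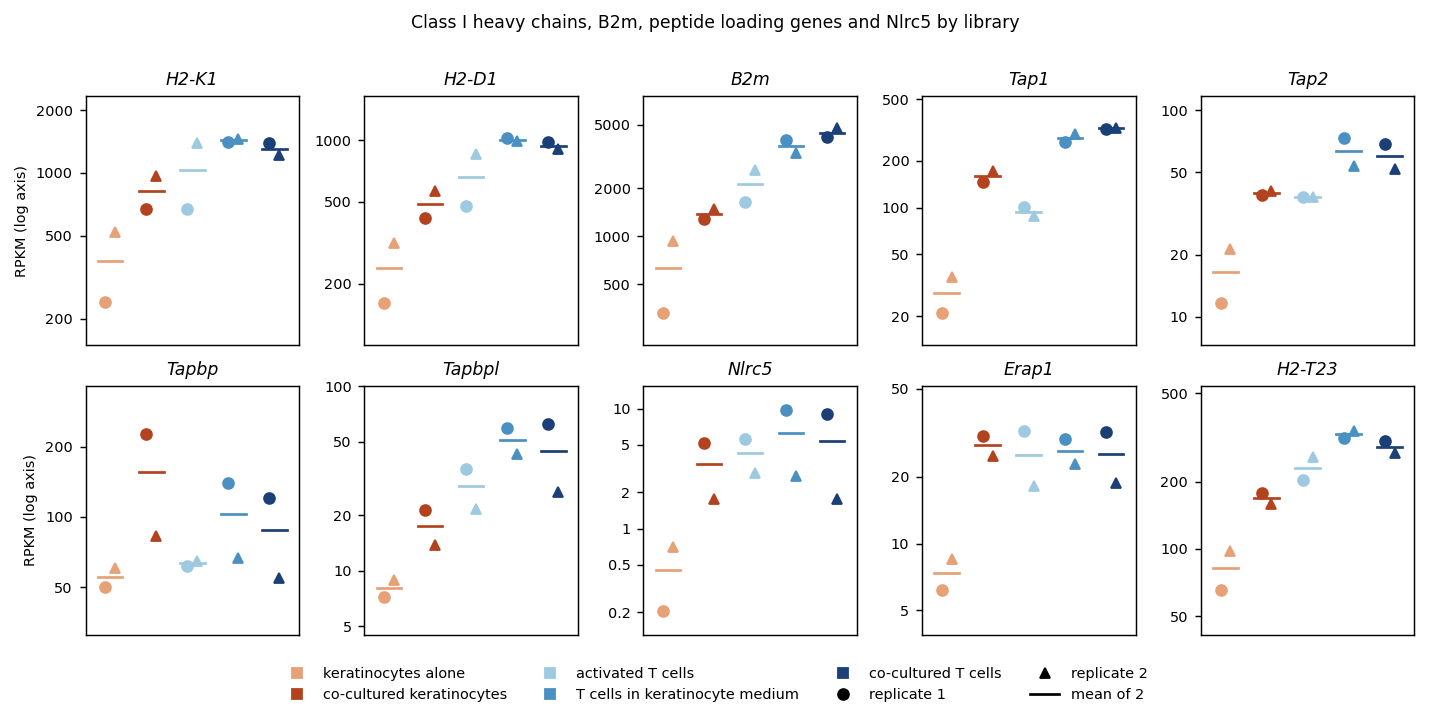
RPKM of each of the 10 genes (log axis, one panel per gene with its own range) in the 10 libraries, with circles for replicate 1, triangles for replicate 2 and a line for the mean of the 2 libraries of a group. Tap1 goes from 20.9 and 35.9 RPKM in keratinocytes alone to 145 and 173 in co-cultured keratinocytes, and the libraries of a T-cell group lie far apart for Nlrc5 and Tapbp.

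The question of the first comparison was how keratinocytes after co-culture with activated CD8+ T cells differed from keratinocytes alone. The paper describes a mix of keratinocyte medium and X-VIVO medium for all co-cultures, and no such mix is stated for keratinocytes alone. Medium and T cells may thus have changed together, and their parts in these differences cannot be told apart. Whether contact with T cells was needed was not tested for these genes. All 10 genes were higher in both co-cultured libraries than in both libraries of keratinocytes alone. None was called by edgeR's quasi-likelihood test at an adjusted p (Benjamini-Hochberg) under 0.05, as was none of all 12515 genes tested (0.0%). The log2 fold changes were between 1.10 (H2-T23) and 2.95 (Nlrc5), with a median of 1.26 against 0.02 for all genes tested. Of the 10 genes, 7 had an unadjusted p under 0.05 in the upward direction, against 3.08% of all genes. Groups that do not overlap in this direction were seen for 19.8% of all genes. DESeq2 called 3 of the 10 genes (Erap1, Nlrc5 and Tap1), limma called 0 with either pseudocount, and edgeR called 2 (Erap1 and Tap1) without replicate 1 of the co-cultured keratinocytes.

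H2-K1 and H2-D1, the classical heavy chains of this mouse strain that present peptides to CD8+ T cells, showed the same pattern. H2-K1 had 239.8 and 519.7 RPKM in keratinocytes alone, against 671 and 965 in co-culture. For H2-D1 these values were 161 and 316 in keratinocytes alone and 417 and 563 in co-culture. Neither gene had overlapping groups, but H2-K1 differed 2.17-fold between the libraries of keratinocytes alone, as much as between the group means (2.15-fold). The log2 fold changes were 1.18 ± 0.55 (SE) for H2-K1 and 1.11 ± 0.50 for H2-D1, with an adjusted p of 0.658 for both (edgeR). H2-T23, which encodes the non-classical molecule Qa-1 that is recognised by receptors of natural killer and T cells, had 65.7 and 98.1 RPKM in keratinocytes alone, against 178 and 159 in co-culture. The groups did not overlap, and the log2 fold change was 1.10 ± 0.35 with an adjusted p of 0.658 (edgeR).

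B2m, the light chain of all these molecules, had 331 and 936 RPKM in keratinocytes alone, against 1287 and 1483 in co-culture. The groups did not overlap, but the libraries of keratinocytes alone differed 2.83-fold. The log2 fold change of 1.19 ± 0.60 had an unadjusted p of 0.107 and an adjusted p of 0.658 (edgeR).

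Among the genes for peptide transport, loading and trimming the largest difference was that of Tap1, which encodes one chain of the TAP transporter. It had 20.9 and 35.9 RPKM in keratinocytes alone and 145 and 173 RPKM after co-culture, a fold of 5.62 between the means. Every co-cultured library was more than 4 times as high as either library of keratinocytes alone. The log2 fold change was 2.56 ± 0.44, with an unadjusted p of 0.0022 and an adjusted p of 0.523 (edgeR). Tap2, the partner chain, was at 11.6 and 21.4 RPKM alone and at 39.0 and 40.5 in co-culture, with a log2 fold change of 1.33 ± 0.41. Its groups did not overlap, and its fold between the means was 2.41.

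Tapbp encodes tapasin, which bridges TAP and the heavy chain. It had 50.1 and 60.6 RPKM in keratinocytes alone, against 227 and 83.1 in co-culture. Both co-cultured libraries were higher, but they differed 2.73-fold from each other, and the log2 fold change was 1.52 ± 0.53. Tapbpl, a tapasin relative that edits peptides outside of the loading complex, was at 7.19 and 8.89 RPKM alone and at 21.3 and 13.8 in co-culture, with a log2 fold change of 1.18 ± 0.35 and no overlap. Erap1, the aminopeptidase that trims peptides in the endoplasmic reticulum, was at 6.18 and 8.53 RPKM alone and at 30.7 and 24.9 in co-culture, again without overlap. Erap1 had the lowest unadjusted p of the 10 genes (0.0020), at a log2 fold change of 1.98 ± 0.33 and an adjusted p of 0.523 (edgeR).

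Nlrc5, the transactivator of class I promoters, had the largest log2 fold change of the 10 genes, 2.95 ± 0.83, and the lowest level. It was counted with 32 and 97 reads in keratinocytes alone and with 638 and 236 reads in co-culture, which corresponds to 0.207 and 0.698 RPKM and to 5.14 and 1.75 RPKM. The groups did not overlap, and the libraries differed 3.38-fold within keratinocytes alone and 2.93-fold within the co-culture.

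T-cell transcripts moved in the same direction, and the amount of T cells and the RNA per T cell cannot be told apart in such bulk libraries. Among libraries with the same number, the sum of the 7 T-cell markers was 1.28-fold higher in co-culture for replicate 1 and 1.78-fold higher for replicate 2. In replicate 1 the 10 genes differed by 2.60-fold (H2-D1) to 24.9-fold (Nlrc5), each more than the 7 markers. In replicate 2 the folds were from 1.37 (Tapbp) to 4.83 (Tap1), and 4 genes (B2m, Tapbp, Tapbpl and H2-T23) lay under the fold of the markers. The added marker level was also multiplied with the mean level of each gene in the 6 T-cell libraries. For replicate 1 this product was 0.961% (Tapbp) to 7.18% (B2m) of the measured increase of a gene. For replicate 2 it was 34.8% (Erap1) to 188% (Tapbpl), above 100% for B2m, Tapbpl, Nlrc5 and H2-T23, and 37.8% for Tap1. These shares depend on the markers used. The sum of Cd8a and Cd8b1, which the 7 markers leave out, was at 0.224 (alone) and 1.32 (co-culture) RPKM in replicate 1 and at 1.47 and 3.16 in replicate 2, folds of 5.90 and 2.15. Measured against the T-cell libraries by these CD8 chains, the added share was 0.168% and 0.259% in place of 2.00% and 22.2%, and the product was at most 0.601% (B2m, replicate 1) and 2.19% (Tapbpl, replicate 2) of the increase of a gene. Cd4, also left out of the 7 markers, was at 11.4 (alone) and 15.0 (co-culture) RPKM in replicate 1 and at 43.5 and 84.5 in replicate 2. In T-cell libraries Cd4 was at 16.8 to 102 RPKM, and no product was computed from it. The share by the 7 markers is thus not an upper limit. With the marker sum as a covariate, edgeR gave positive log2 fold changes for 10 of 10 genes and called 0. The marker sum was higher in both libraries of replicate 2 than in both of replicate 1. This fit thus cannot tell the T-cell share from other differences between the replicates. The plot of folds within replicates sets each gene against the markers.

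**Figure D2:**
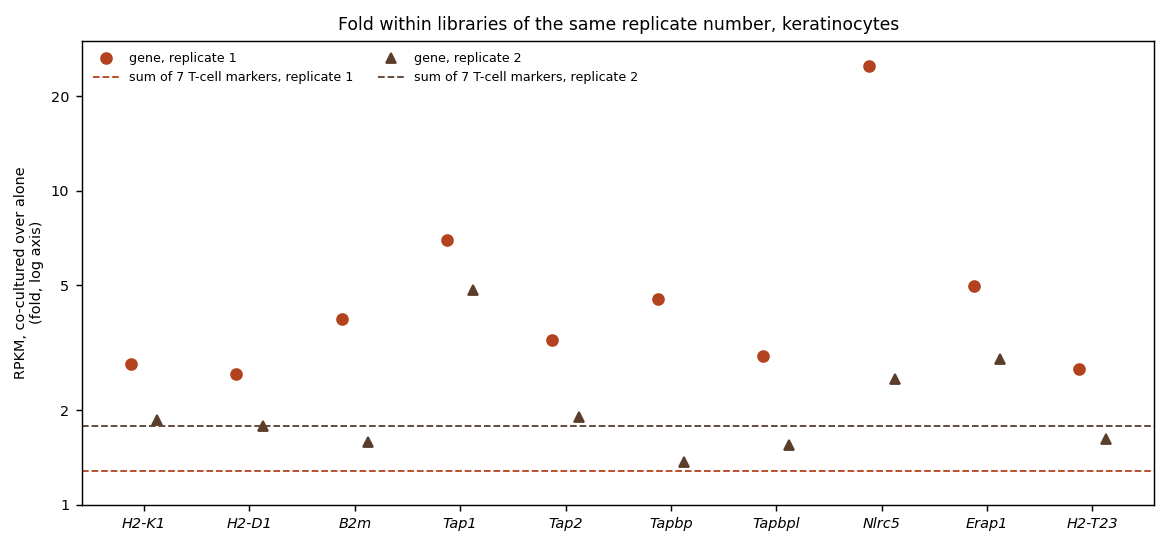
Fold of RPKM between co-cultured keratinocytes and keratinocytes alone (log axis) within libraries of the same replicate number, with points for the 10 genes and dashed lines for the summed 7 T-cell markers. In replicate 1 all 10 points are above the line at 1.28-fold, whereas in replicate 2 B2m, Tapbp, Tapbpl and H2-T23 are below the line at 1.78-fold.

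In T cells the question was which transcripts changed after the end of activation, with or without keratinocytes. Since medium and time changed together after activation, their parts in these differences cannot be told apart. Tap1 was the only one of the 10 genes that was called by edgeR, and it rose in both comparisons. It was at 101 and 88.1 RPKM in activated T cells, at 263 and 299 in keratinocyte medium and at 323 and 327 in co-culture. The 3 groups did not overlap. In keratinocyte medium the log2 fold change was 1.73 ± 0.30 (adjusted p = 0.0205, edgeR), and in co-culture it was 1.98 ± 0.30 (adjusted p = 0.0093, edgeR). In keratinocyte medium 1 of the 10 genes was thus called higher, against 2.32% of the 11863 genes tested, and 4 of 10 had an unadjusted p under 0.05 (11% of all genes in this direction). DESeq2 called Tap2 there as well. In co-culture 1 of 10 was called, against 4.59%, and 3 of 10 had an unadjusted p under 0.05 (13.9%). The call in keratinocyte medium was lost without either library of the activated T cells and without either library in keratinocyte medium (0 of 10 in all 4 cases), and that in co-culture was lost without replicate 1 of the activated T cells.

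The other 9 genes had positive log2 fold changes in both comparisons and did not pass the test. In keratinocyte medium Tap2 came closest (adjusted p = 0.108, edgeR), and in co-culture B2m did. B2m was at 1651 and 2621 RPKM in activated T cells, 3994 and 3337 in keratinocyte medium and 4207 and 4746 in co-cultured T cells. The log2 fold change of B2m was 0.91 ± 0.35 (adjusted p = 0.158, edgeR) in keratinocyte medium and 1.26 ± 0.35 (adjusted p = 0.0597, edgeR) in co-culture. In co-culture B2m was also called by DESeq2 (with Tap1 and Tap2), and by edgeR without the filter or with the length trend removed (with Tap1 each). The other fits with 2 libraries in each group did not call B2m. Over all alternative fits its log2 fold change in co-culture was 0.94 to 1.69. H2-K1 was at 673 and 1391 RPKM in activated T cells, 1413 and 1459 in keratinocyte medium and 1388 and 1223 in co-culture. For H2-D1 these values were 476 and 853, then 1025 and 984, and 974 and 901. Both heavy chains thus differed more between the libraries of activated T cells than between the later groups. H2-T23 was at 204 and 259 RPKM in activated T cells and at 269 to 337 in the 4 later libraries, which did not overlap with them. Tap2 was at 37.8 and 37.9 RPKM in activated T cells, 73.4 and 53.5 in keratinocyte medium and 68.7 and 52.0 in co-culture, again without overlap.

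Tapbp was at 61.9 and 64.8 RPKM in activated T cells, 139.8 and 67.1 in keratinocyte medium and 120.4 and 55.0 in co-culture. Tapbpl was at 35.8 and 21.6 RPKM, then 59.2 and 43.0, and 62.6 and 26.8. Erap1 showed the smallest log2 fold changes, 0.21 ± 0.36 and 0.20 ± 0.36, at 32.2 and 18.2 RPKM in activated T cells, 29.8 and 22.8 in keratinocyte medium and 32.0 and 18.7 in co-culture. Nlrc5 was at 5.60 and 2.90 RPKM, then 9.70 and 2.74, and 8.96 and 1.76. For Erap1 and Nlrc5 the libraries of the 3 groups overlapped throughout, and the sign of their log2 fold change turned when single libraries were left out. Groups did not overlap for 8 of 10 genes in keratinocyte medium (22.1% of all genes in this direction) and for 5 of 10 in co-culture (23.6%). Both comparisons share the activated T cells.

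**Figure D3:**
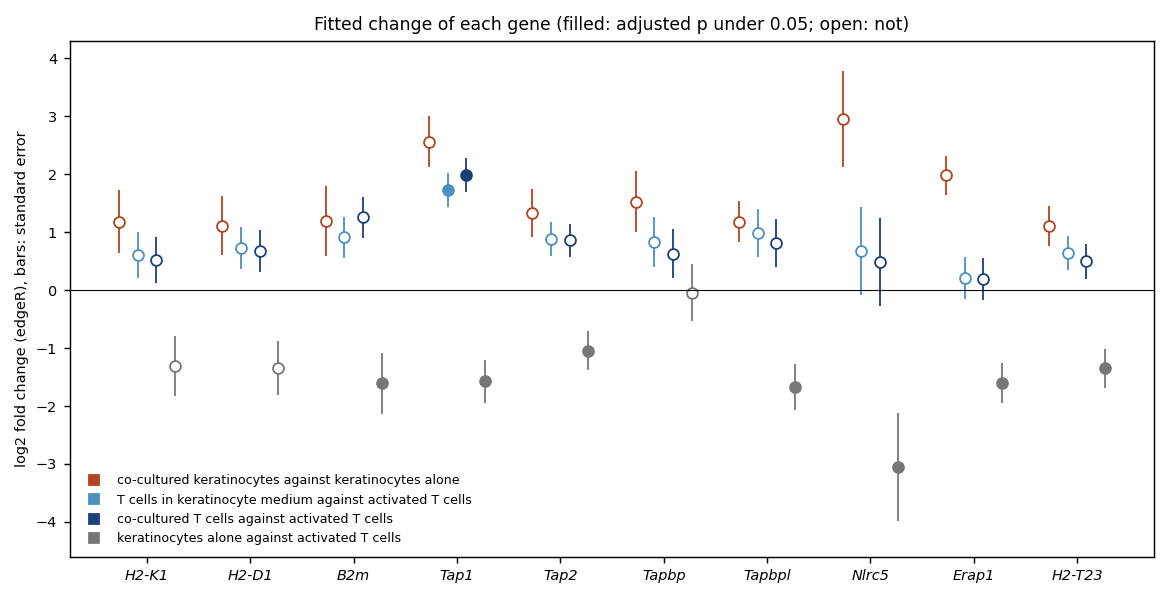
Log2 fold change with its standard error (edgeR) of the 10 genes in 4 comparisons, with filled points for an adjusted p under 0.05 and open points for values that did not pass. In T cells only Tap1 is filled (1.73 and 1.98), all points of the co-cultured keratinocytes are open and above 1, and 7 grey points of keratinocytes alone against activated T cells are filled below 0.

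The presence of keratinocytes made no detectable difference to these genes in T cells kept in the mixed medium. Log2 fold changes of co-cultured T cells against T cells in keratinocyte medium were between -0.20 (Tapbp) and 0.35 (B2m), with standard errors of 0.29 to 0.75. None of the 10 genes was called by edgeR, against 0.261% of all genes, and none had an unadjusted p under 0.05 (3.45% of all genes). DESeq2 and limma called 0 of 10 as well. B2m and Tap1 were higher in both co-cultured libraries than in both others (14.2% of all genes), and H2-K1, H2-D1 and H2-T23 were lower in both (13.1%). An interaction term over 8 libraries tested whether keratinocytes and T cells differed in the effect of co-culture. The T-cell side compared groups kept in the mixed medium, whereas no such mix is stated for keratinocytes alone. A change of medium on the keratinocyte side thus cannot be told apart from the effect of co-culture. The difference of the log2 fold changes, keratinocytes minus T cells, was positive for all 10 genes, from 0.83 ± 0.74 (B2m) to 3.11 ± 1.35 (Nlrc5), and it passed for none of them (edgeR, 0.053% of all genes higher). Erap1 (1.98 ± 0.46, adjusted p = 0.188) and Tap1 (2.30 ± 0.55, adjusted p = 0.197) came closest, 5 of 10 genes had an unadjusted p under 0.05 against 2.47% of all genes in this direction, and DESeq2 called these 2 genes whereas limma called 0.

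Keratinocytes alone had less of these transcripts than activated T cells. In RPKM all 10 genes were lower in both keratinocyte libraries than in both T-cell libraries (35.1% of all genes), and 7 of 10 were called lower, against 1740 of the 13394 genes tested (13%, edgeR over all 10 libraries). The called genes were Nlrc5 (log2 fold change -3.05 ± 0.93, adjusted p = 0.0322), Tapbpl (-1.67 ± 0.40), B2m (-1.61 ± 0.53), Erap1 (-1.61 ± 0.35, adjusted p = 0.0082), Tap1 (-1.58 ± 0.37), H2-T23 (-1.35 ± 0.33) and Tap2 (-1.04 ± 0.34). H2-D1 (-1.34 ± 0.47, adjusted p = 0.0515) and H2-K1 (-1.31 ± 0.52, adjusted p = 0.0784) did not pass, but both were called by DESeq2 and by limma with either pseudocount. With library sizes in place of TMM or with the length trend removed edgeR called both as well (9 of 10 genes each, against 2143 and 2440 of 13394 genes lower). With only the 4 libraries compared or with at least 10 counts in every library it called 5 of 10, without B2m and Tap2 (1942 of 12666 and 1499 of 9427 genes lower). Tapbp was nearly level, at -0.05 ± 0.49 with an adjusted p of 0.954 (edgeR). Without replicate 1 of the keratinocytes alone, the library with the lower T-cell markers, 0 of 10 genes were called, without replicate 2 of the same group 9 of 10, and without replicate 1 or 2 of the activated T cells 4 and 3.

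In the co-culture itself 2 of the 10 genes were called lower in keratinocytes than in T cells, B2m (log2 fold change -1.77 ± 0.53, adjusted p = 0.0412, edgeR) and Tapbpl (-1.38 ± 0.39, adjusted p = 0.0347, edgeR), against 6.73% of all genes. Tap1 (-1.09 ± 0.36, adjusted p = 0.0586) and H2-T23 (-0.84 ± 0.32, adjusted p = 0.0946) did not pass. Erap1 was at 0.09 ± 0.34 and Tapbp at 0.76 ± 0.49. Both calls were lost without either co-cultured keratinocyte library (0 of 10), without either library of the T cells in keratinocyte medium (0) and without replicate 1 of the co-cultured T cells (0). Tapbpl was lost without either library of keratinocytes alone, and B2m without replicate 1 of the activated T cells or replicate 2 of the co-cultured T cells (1 of 10 each). Groups did not overlap in the lower direction for 7 of 10 genes (25.7% of all genes).

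Ratios between genes within a library do not depend on its depth. H2-K1 was 1.36 to 1.71 times as high as H2-D1 in all 10 libraries. The keratinocyte libraries (1.49 to 1.71) lay above the T cells in keratinocyte medium (1.38 to 1.48) and in co-culture (1.36 to 1.43). Activated T cells (1.41 to 1.63) overlapped with all these groups. The ratio of Tap1 to Tap2 was 1.68 to 1.79 in keratinocytes alone and 3.73 to 4.28 in co-cultured keratinocytes. In T cells it was 2.32 to 2.67 after activation, 3.59 to 5.58 in keratinocyte medium and 4.70 to 6.29 in co-culture. These chains of the TAP transporter work as a dimer, and in both cell types their ratio in the first group did not overlap with that in the others. B2m relative to the sum of both classical heavy chains was at 0.827 to 1.18 in the keratinocyte libraries and at 1.17 to 2.23 in the T-cell libraries, with the highest values in co-cultured T cells (1.78 and 2.23). Tapbp was 6.03 to 10.7 times as high as Tapbpl in keratinocyte libraries and 1.56 to 3.0 times as high in T-cell libraries. These ratios are given as a description and were not tested.

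**Figure D4:**
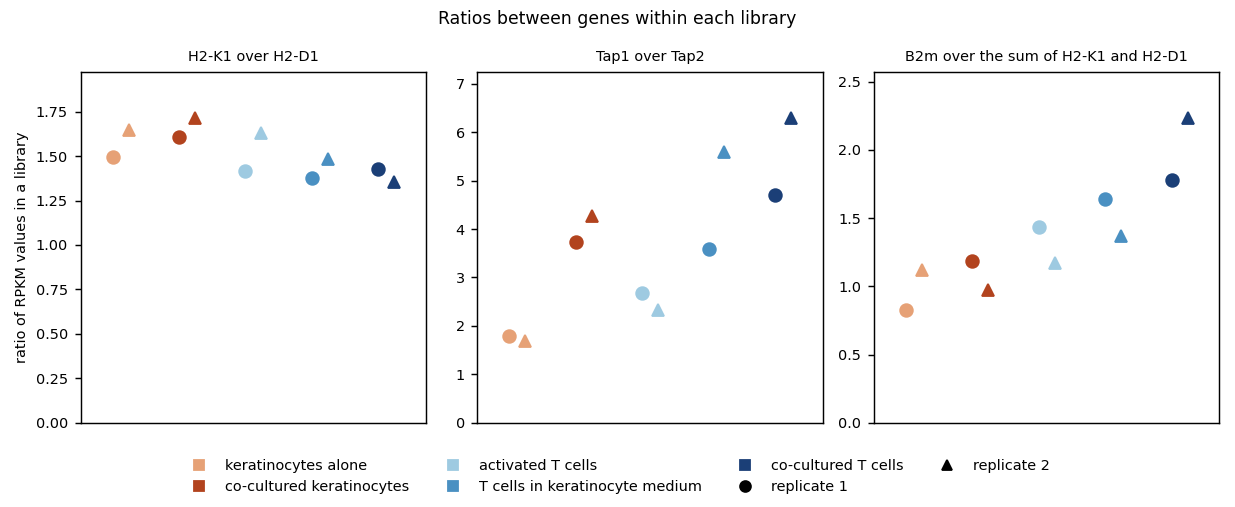
Ratios of RPKM values between genes of the class I pathway within each of the 10 libraries, with circles for replicate 1 and triangles for replicate 2. The ratio of H2-K1 to H2-D1 stays between 1.36 and 1.71, whereas that of Tap1 to Tap2 is at most 1.79 in keratinocytes alone and at least 3.73 in co-cultured keratinocytes.

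The genes that act before, beside and after this machinery differed between lists. All 6 genes of the list for the immunoproteasome, which makes peptides for class I, and its activator were higher in both co-cultured keratinocyte libraries than in both libraries alone. Their median log2 fold change was 2.40. Such groups were seen for 19.8% of all genes. None was called by edgeR, and 5 of 6 had an unadjusted p under 0.05 (3.08% of all genes in this direction). The remaining gene of the list was Pomp, an assembly factor of proteasomes and not a subunit (unadjusted p = 0.0784, edgeR). Psmb9, a catalytic subunit whose start lies next to that of Tap1 on the other strand, was at 4.86 and 20.0 RPKM alone and at 81.3 and 107 in co-culture. Psmb8 was at 17.4 and 59.9 RPKM alone and at 192 and 247 in co-culture, and Psmb10 at 7.59 and 23.7 and then at 134 and 126. Psme2, a subunit of the activator, was at 41.5 and 85.8 RPKM alone and at 277 and 296 in co-culture, with 33.5% unique reads. In T cells Psmb9 rose in keratinocyte medium (log2 fold change 1.76) and in co-culture (1.75), and Psmb10 rose in keratinocyte medium (1.52), all with an adjusted p under 0.05 (edgeR). In keratinocytes alone against activated T cells 5 of the 6 genes were called lower (13% of all genes).

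Of 18 other class I heavy chain genes 12 were tested in keratinocytes, where edgeR called 0, 2 had an unadjusted p under 0.05 in the upward direction and 1 in the downward direction (3.08% and 4.12% of all genes), and the median log2 fold change was 1.27. H2-T22, a non-classical gene, was at 34.9 and 58.8 RPKM alone and at 158 and 200.2 in co-culture, and H2-Q4 was at 3.26 and 7.11 and then at 17.5 and 19.6. H2-M3, which presents formylated peptides, was at 1.69 and 3.43 RPKM alone and at 4.94 and 10.5 in co-culture, and H2-T10 at 0.434 and 1.24 and then at 2.28 and 2.85. Only 59.9% of the reads of H2-T22 and 14.4% of those of H2-T10 were unique, so that their levels are uncertain. In co-cultured against activated T cells Mr1 and Fcgrt, relatives of the class I heavy chains, were called higher among 14 tested (edgeR, 4.59% of all genes). In keratinocytes alone against activated T cells 6 of 15 were called lower (13% of all genes) and 1 higher (22.5%).

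Among 18 genes of the interferon signal and of activators of class I promoters edgeR called 0 in keratinocytes, and 3 had an unadjusted p under 0.05 in the upward direction (3.08% of all genes). Irf1 and Irf9, transcription factors of the interferon response, were among them. Irf1 was at 3.19 and 5.72 RPKM alone and at 58.3 and 62.3 in co-culture (log2 fold change 3.83 ± 0.45, adjusted p = 0.434, edgeR). In the interaction test Irf1 was the only called gene of these lists and of the 10 genes (3.73 ± 0.54, adjusted p = 0.0364, edgeR). Irf9 was at 7.0 and 9.68 RPKM alone and at 22.9 and 25.1 in co-culture. The median of this list was -0.08. Ifng, the cytokine itself, was at 613 and 589 RPKM in activated T cells, at 3.26 to 7.20 in the later T-cell libraries and at 1.26 to 5.92 in keratinocyte libraries, and it fell in both T-cell comparisons (edgeR).

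The general chaperones Calr, Canx, Pdia3 and Hspa5, which fold class I chains among many other proteins, had log2 fold changes of -0.35 to 0.09 in co-cultured keratinocytes (0 of 4 called, 0 of 4 with an unadjusted p under 0.05, median log2 fold change -0.12). Calr, calreticulin of the loading complex, was at 387 and 544 RPKM alone and at 492 and 314 in co-culture. In co-cultured against activated T cells 3 of 4 fell (log2 fold changes of -1.22 for Calr, -1.44 for Canx and -1.67 for Hspa5, edgeR), where 5.72% of all genes were called lower. In keratinocyte medium Hspa5 alone was called (-1.52, against 4.22% of all genes). Of 6 other peptidases in the tables, Lap3, a cytosolic aminopeptidase, was the only one with an unadjusted p under 0.05 in keratinocytes, at 27.9 and 24.4 RPKM alone and 137 and 98.5 in co-culture, and edgeR called 0 of 6. In T cells Lap3 fell in both comparisons (log2 fold changes -1.52 and -1.82), and Thop1, which degrades cytosolic peptides, fell in co-culture (-2.58). Genes for the removal of class I chains had a median log2 fold change of -0.48 in keratinocytes, with 0 of 6 called. Syvn1, a ubiquitin ligase of the endoplasmic reticulum, was at 12.9 and 13.1 RPKM alone and at 8.20 and 5.51 in co-culture, with an unadjusted p of 0.0408. In keratinocytes alone against activated T cells 5 of 6 genes of this list were called higher (22.5% of all genes).

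**Figure D5:**
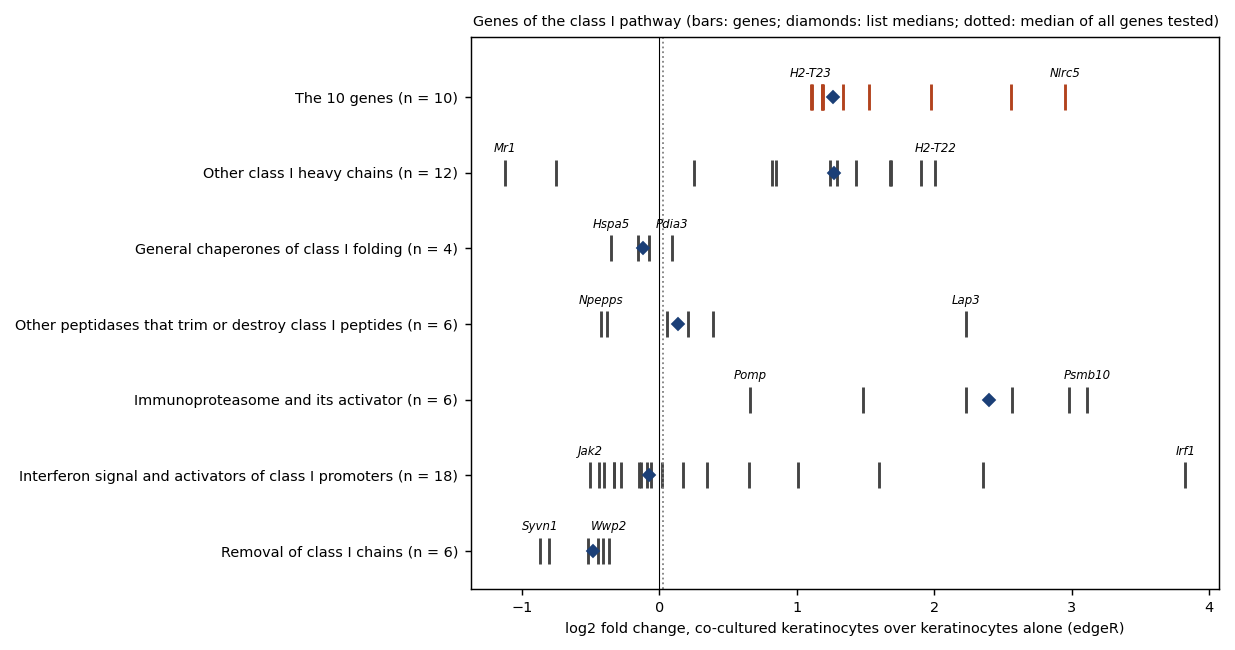
Log2 fold change between co-cultured keratinocytes and keratinocytes alone (edgeR) for the 10 genes and for the tested genes of 6 other lists, with a bar for each gene, a diamond for the median of a list and a dotted line for the median of all genes tested. The 10 genes, the immunoproteasome (median 2.40) and the other heavy chains (1.27) lie mostly to the right, whereas chaperones (-0.12) and genes for removal (-0.48) do not.

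Among the 8734 genes that had a mean of 5 RPKM or more in any group and were not among the 10, the one whose log2(RPKM + 1) pattern over the 10 libraries was most like that of Tap1 was Psmb9 (Pearson's r = 0.979), followed by Trim21 (0.964), Irgm2 (0.964), Lgals9 (0.957) and H2-T22 (0.955). For B2m these were Gsdmd (0.986), H2-T10 (0.978), Fas (0.977), Osgep (0.968) and Samhd1 (0.966). For Nlrc5 they included Dtx3l (0.969), Lancl2 (0.930), Sgo1 (0.900) and Rbck1 (0.894). Within the 10 genes the highest r was that between H2-K1 and H2-D1 (0.991), and Tapbp was least like the others, with 0.235 to B2m. These values describe 10 libraries of 2 cell types, which share depth, group and cell type, and they carry no test.

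How reads were assigned bears on single genes. By the deposited coordinates (GRCm38) B2m lies wholly inside Patl2, a gene of the opposite strand. Of the exon reads of B2m 21.1 to 24.8% were listed as unique, nearly all of them across exon junctions. Tapbpl lies in the same way inside Vamp1, with 15.3 to 23% unique reads. The 229 genes of such a position with 1000 or more reads over the 10 libraries had a median of 13.6% unique reads, whereas the median was 100% in 9431 genes that are not inside another gene. Patl2 and Vamp1 held only 30 and 194 exon reads over all 10 libraries, against 328762 for B2m and 11150 for Tapbpl. No window of 59 bases, the length of the reads, of the 802 windows in B2m transcripts was found in another gene, against 221 of 3570 for H2-K1 (most with H2-Q10), 221 of 2591 for H2-D1 (most with H2-Q1) and 326 of 3050 for H2-T23. The largest share was that of Tapbp, 812 of 3785 windows (most with Gm19412), and Erap1 shared 776 of 7334 with Cast and Tap2 398 of 3828, most with Gm15821. With unique exon reads edgeR called 0 of 10 genes in keratinocytes and Tap1 alone in each of both T-cell comparisons with activated T cells.

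Libraries of a group also differed by gene length. The log2 ratio of replicate 1 to replicate 2 was related to exon length in all 5 groups, with Spearman's rho from 0.284 (activated T cells) to 0.528 (T cells in keratinocyte medium) across genes, which are not independent replicates. The longest of the 10 genes, Nlrc5, was 3.54-fold higher in replicate 1 than in replicate 2 of T cells in keratinocyte medium and 5.10-fold higher in co-cultured T cells, whereas H2-K1, with 1701 bases of exons, was at 0.969-fold and 1.14-fold. In keratinocytes alone Nlrc5 was at 0.296-fold and H2-K1 at 0.461-fold. With this length trend removed, edgeR called 0 of the 10 genes in co-cultured keratinocytes.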

How the data were processed

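The authors isolated poly(A) RNA, prepared libraries with the NEBNext Ultra II kit, which is not stated to keep the strand, sequenced single-end reads of 59 bases on a HiSeq2500 and aligned them to GRCm38 with the CLC Genomics Workbench. The annotation release is not given in the sources used here. Sources differ on the co-culture, with 1 d in the labels of the co-cultured T cells and in the paper and 1 h in the design text. The labels of the co-cultured keratinocytes give no time. Per gene and library, the authors deposited raw counts of total and unique reads on exons, exon junctions and introns, and other values, namely their RPKM written with decimal commas.

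The 10 genes, the gene lists and the markers were chosen with earlier results of these data known. Of the lists, every gene was counted and at most 4 are given with values, those with the largest log2 fold change in keratinocytes at a mean of 5 RPKM or more in any group. For Tap1, B2m and Nlrc5 the 5 most similar genes are named. The values of 1 gene that these rules name are not reported here.

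Log2 fold changes were computed from total exon counts by edgeR 4.0.16 (R 4.3.3), using filterByExpr, TMM, glmQLFit and glmQLFTest, with Benjamini-Hochberg adjustment over all genes tested. The standard error is the log2 fold change divided by the square root of F. Fits held the 4 keratinocyte libraries, the 6 T-cell libraries, 8 libraries for the interaction, or all 10 libraries for comparisons between cell types. Labels do not state separate animals, so that p-values measure the spread between libraries, which may be technical. Results were recomputed without each library in turn, with the replicate block, with other sets of libraries, from unique reads, after removal of the length trend, with library sizes instead of TMM, without the filter, with a minimum of 10 counts everywhere, with DESeq2 1.42.0, and with limma 3.58.1 (RPKM on the log2 scale after adding 1 or 0.1). The T-cell marker sum as a covariate, its subtraction and the CD8 chains as markers were chosen after seeing the data. Floors of 3 reads cover counting error only. Scripts were tested on simulated data. Tables and plots were made with Python 3.11.15, numpy 2.4.6, pandas 2.3.3 and matplotlib 3.10.9.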

Additional observations from a re-analysis of the deposited data

How the results depend on the processing

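In co-cultured keratinocytes against keratinocytes alone the log2 fold changes of all 10 genes stayed positive in every alternative fit. With all libraries kept, 0 of 10 were called in all but 2 of these fits. DESeq2 called 3, against 85 of 15824 genes higher. The replicate block together with removal of the length trend called 4 (Erap1, Nlrc5, Tap1 and Tap2), against 204 of 12515 genes higher. Which genes were called also depended on the library left out. The replicate block alone called 0 of 10. Keratinocyte libraries with the same number deviated together from their group means (r = 0.558 over 12515 genes). The labels state no batch, and with 2 pairs the source of this was not tested. No paired analysis was possible for the T-cell groups because the labels number only the activated T cells. After subtraction of the T-cell share by the 7 markers, Tap1 and Nlrc5 gave no value, since the mean left in keratinocytes alone was below 0, and the means gave 4.2 for B2m and 3.08 for Tapbpl against 1.19 and 1.18 without it. The means behind these values include levels below 0 in replicate 2, so that they give the change of neither replicate. In replicate 1 the levels left were 82.8 RPKM alone and 971 in co-culture for B2m, and 4.18 and 17.5 for Tapbpl. In replicate 2 the levels left were lower in co-culture than alone for B2m (-259 and -44.0 RPKM), Tapbpl (-7.31 and -2.98), Nlrc5 (-0.930 and -0.812) and H2-T23 (15.6 and 17.6), so that no change can be read from the subtraction there.

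In T cells DESeq2 called 2 genes in keratinocyte medium (815 of 15291 genes higher) and 3 in co-culture (1081 of 15291). No filter and removal of the length trend gave 2 each in co-culture (1132 of 15291 and 799 of 11863 genes higher). With a library left out the calls were 0 to 1 in keratinocyte medium and 0 to 2 in co-culture. DESeq2 called 2 in the interaction (59 of 16607 genes higher). With a library left out, 0 to 9 genes were called in keratinocytes alone against activated T cells and 0 to 2 between the partners of the co-culture. Between the partners 4 were called with DESeq2 (1484 of 16891 genes lower) and 1 with at least 10 counts in every library (699 of 9427). It was 3 with log2(RPKM + 0.1) (1277 of 11800) or with the length trend removed (1368 of 13394), and 0 with only these 4 libraries (350 of 12432).

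Signs turned only for values that did not pass. In co-cultured T cells against T cells in keratinocyte medium 2 of the 10 log2 fold changes were positive with all libraries. It was 6 without replicate 1 of the T cells in keratinocyte medium and 7 without replicate 2 of the co-cultured T cells. Nlrc5 was at -0.011 with limma on log2(RPKM + 0.1) in co-cultured against activated T cells. With single libraries left out, Nlrc5 ranged from -0.37 to 1.28 in keratinocyte medium and from -0.97 to 1.19 in co-culture, both against activated T cells, and from -1.52 to 0.72 between the partners of the co-culture. Erap1 ranged in the same way from -0.10 to 0.64, from -0.12 to 0.61 and from -0.13 to 0.35, and between the partners it was also at -0.25 with the length trend removed and at -0.0032 with only these 4 libraries. Tapbp ranged from -0.31 to 0.023 in keratinocytes alone against activated T cells, where it was at 0.016 with at least 10 counts, and from -0.011 to 1.26 between the partners. Library size in place of TMM moved the median log2 fold change of all genes from -0.01 to -0.13 in keratinocyte medium, from -0.01 to -0.17 in co-cultured T cells and from 0.14 to -0.02 in keratinocytes alone against activated T cells.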
